A study of Mus musculus with 6 samples.

Results

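The genes described here are 10 members of the Notch pathway: the receptors Notch1, Notch2 and Notch3, the ligands Jag1 and Dll1, the receptor-modifying enzyme Lfng, and the target genes Hes1, Hes5, Heyl and Nrarp. They were chosen by gene symbol, as every probe of the array whose platform symbol is 1 of these 10, which gave 12 of the 45281 probes and 10 of 19057 named genes. Expression was measured on Illumina bead arrays in whole mouse kidneys at E13.5 in mid-gestation, on a mixed background of C57BL/6 and 129S1/SvImJ. The groups were 3 arrays of control kidneys and 3 of kidneys labelled YapCM-/-. In the study, as known beyond its labels, CM names the cap mesenchyme, the pool of nephron progenitors, in which Yap was deleted with a Cre driven by Six2. Nephron cells that descend from these progenitors inherit the deletion, while cells of other lineages, such as ureteric bud, stroma and vessels, are not its target. The genotype of the controls and whether replicates are separate embryos are not stated in the labels. A p-value here sets a group difference against the spread among these samples only, part of which could be technical.

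Notch receptors sit in the cell membrane and are activated by Jagged or Delta ligands on a neighbouring cell. Proteases then release the receptor's intracellular part, which joins the DNA-binding protein RBPJ in the nucleus and switches on genes such as those of the HES and HEY repressors. In the developing mouse kidney, Notch signalling, mainly through Notch2, is known for its part in forming the proximal tubule and the podocytes from the early nephron. Notch1, Notch3, Notch4 and Dll4 are also known from blood vessels and their mural cells.

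For the target genes, the DNA at the start of the gene shows where the pathway's own DNA-binding protein could be looked for. RefSeq windows of 300 bases (assembly GRCm38.p6), from 250 bases before the start site to 50 bases from it on, were matched for 8 of the 10 members, 9 windows in all, and not for Hes1 and Heyl. They were searched on both strands for the RBPJ core TGGGAA, for its longer form GTGGGAA, which contains the core, and for the TEAD core GGAATG, the letters bound by the DNA-binding partners of Yap, which can share letters with the RBPJ core. The windows of Hes5 and Lfng are shown because they were the only ones of the 9 with an RBPJ core, and those of Nrarp and Jag1 because these probes were lower in every YapCM-/- array. Capitals mark the RBPJ core on either strand.
Hes5 (chr4:154960673-154960972, + strand): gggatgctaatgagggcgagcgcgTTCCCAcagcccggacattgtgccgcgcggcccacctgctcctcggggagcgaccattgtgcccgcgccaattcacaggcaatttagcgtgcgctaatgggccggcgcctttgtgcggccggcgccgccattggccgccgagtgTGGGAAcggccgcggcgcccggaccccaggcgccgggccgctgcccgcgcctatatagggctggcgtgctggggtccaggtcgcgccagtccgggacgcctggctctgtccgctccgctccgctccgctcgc
Lfng (chr5:140607091-140607390, + strand): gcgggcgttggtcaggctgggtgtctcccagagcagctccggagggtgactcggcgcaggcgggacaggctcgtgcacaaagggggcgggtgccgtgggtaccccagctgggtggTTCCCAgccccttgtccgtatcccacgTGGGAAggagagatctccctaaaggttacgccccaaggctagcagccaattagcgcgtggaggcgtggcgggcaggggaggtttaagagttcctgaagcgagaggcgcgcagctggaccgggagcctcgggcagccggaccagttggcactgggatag
Nrarp (chr2:25180508-25180807, + strand): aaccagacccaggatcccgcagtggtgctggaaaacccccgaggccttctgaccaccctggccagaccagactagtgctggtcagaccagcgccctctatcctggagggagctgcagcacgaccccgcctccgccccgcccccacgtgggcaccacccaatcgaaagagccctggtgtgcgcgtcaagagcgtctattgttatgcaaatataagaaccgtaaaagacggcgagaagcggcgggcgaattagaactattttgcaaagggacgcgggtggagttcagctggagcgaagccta
Jag1 (chr2:137116471-137116770, - strand): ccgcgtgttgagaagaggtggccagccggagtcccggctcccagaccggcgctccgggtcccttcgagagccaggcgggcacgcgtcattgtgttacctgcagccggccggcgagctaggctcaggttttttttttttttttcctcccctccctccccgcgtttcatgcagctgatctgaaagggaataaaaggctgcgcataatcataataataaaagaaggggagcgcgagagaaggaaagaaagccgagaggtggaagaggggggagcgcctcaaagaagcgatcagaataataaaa
The Hes5 window held the core at -226 and -82 and the Lfng window at -135 and -108, counted from the start site. The core occurs in 25.6% of all 32851 windows, and 2 of the 9 member windows held it. The longer form occurs in 6.38% of all windows and was found in the same 2 member windows. The TEAD core, found in 14.7% of all windows, was present in the Notch1 window alone among the 9. These matches describe letters in a window and are not measured sites.

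Signals are log2 values that were normalized between arrays before deposition, with a median of 7.30 on each array. They carry no visible background subtraction, so folds understate the change of dim probes. The 22640 probes with the highest mean (above a log2 of 7.29) were tested with limma, and p-values were adjusted over all of them. At an adjusted p of 0.05, 40 probes (0.177%) were called, and the smallest difference among them was 0.50. Yap1 itself read 9.75, 9.81 and 9.64 in control and 8.91, 8.72 and 8.99 in YapCM-/- kidneys. It fell by 0.86 in log2 units (SE 0.093, limma adjusted p = 0.0102). Which exon the probe reads is not given, so the fall shows less Yap1 signal and may not read the deleted part itself. Of the markers fixed for the tissue, all 8 of the cap mesenchyme and 7 of 8 of the ureteric bud lay among the tested probes. Xist was high on control replicate 2 and YapCM-/- replicate 3 only. On the first principal component the controls lay at -5.81, -23.0 and -1.24, with replicate 2 the farthest out. The YapCM-/- arrays lay at 16.6, 7.33 and 6.11.

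Of the 12 member probes 9 were tested, standing for 8 of the 10 genes, and 0 of them passed in limma. At that threshold only 0.177% of all tested probes were called. The ligand Jag1 and the targets Hes1 and Nrarp were lower in all 3 YapCM-/- arrays than in any control array, by 0.32 to 0.37 on the log2 scale, and the target Heyl was higher in all 3, by 0.31. Notch1, Notch3 and Dll1 had nearly equal group means, with differences of 0.0044 to 0.02. The groups did not overlap in the lower direction at 3 of the 9 tested member probes, against 8.41% of all tested probes, and in the higher direction at 1 of 9, against 8.11%. The same probes were those with an unadjusted p under 0.05, at which 5.92% of all tested probes were lower and 5.53% higher. The list is short and was chosen with earlier results known, so these shares are a description. Its median difference, over the 9 tested probes, was 0.0044, beside 0.0014 over all tested probes. With Hes5 represented by its brighter probe alone, the median over the 8 tested genes was -0.089.

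**Figure D1:**
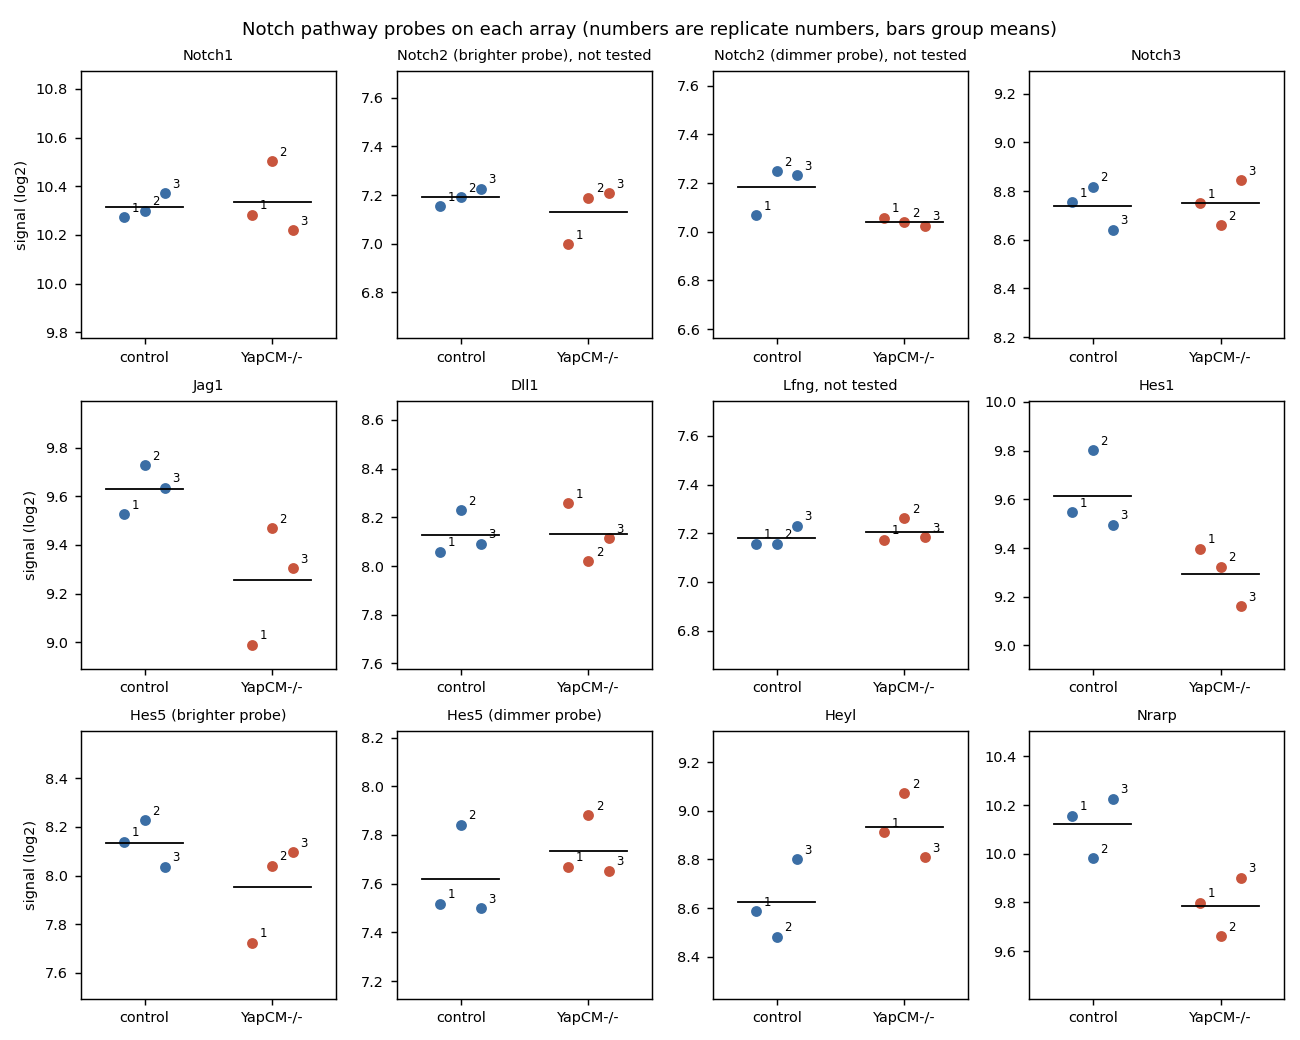
Log2 signal (vertical axis, each panel 1.1 log2 units high) of the 12 Notch pathway probes on the 3 control (blue) and 3 YapCM-/- (red) arrays. Points carry replicate numbers and bars are group means. The groups stand apart for Jag1, Hes1, Heyl and Nrarp, and for the dimmer Notch2 probe, which was not tested.

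Among the receptors, Notch1 had nearly the same mean in both groups. Its probe read 10.27, 10.30 and 10.37 in control and 10.28, 10.50 and 10.22 in YapCM-/- kidneys. The control arrays lay inside the range of the YapCM-/- arrays, and the difference was 0.02 (SE 0.091, 95% interval -0.18 to 0.22, adjusted p = 0.959).

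Notch3, known from mural cells of vessels, read 8.76, 8.82 and 8.64 in control and 8.75, 8.66 and 8.85 in YapCM-/- kidneys. The groups overlapped, with a difference of 0.01 (SE 0.085, 95% interval -0.18 to 0.20, adjusted p = 0.971). A change of either receptor transcript by more than 0.22 in log2 signal of the whole organ lies outside these intervals.

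Notch2, the receptor with the main known role in nephron segmentation, was measured by a pair of probes that were both too dim to be tested. Their means stood at the 31.8th and 21.5th percentile of all probes. The brighter probe read 7.15, 7.19 and 7.23 in control and 7.00, 7.19 and 7.21 in YapCM-/- kidneys, and the groups overlapped. The dimmer one read 7.07, 7.25 and 7.23 against 7.06, 7.04 and 7.02, with the YapCM-/- arrays lower by a gap of 0.012. With all probes in the fit the differences were -0.06 (adjusted p = 0.891) and -0.14 (adjusted p = 0.576). Readings this dim understate any change, and no direction is given for Notch2.

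Of the ligands, Jag1 read lower and Dll1 had nearly equal means. Jag1, a ligand known from the renal vesicle, the S-shaped body and the endothelium, read 9.53, 9.73 and 9.63 in control and 8.99, 9.47 and 9.31 in YapCM-/- kidneys. All YapCM-/- arrays lay below all control arrays, with the nearest 0.056 apart and YapCM-/- replicate 1 the lowest. The means were 9.63 ± 0.10 and 9.25 ± 0.24 (SD, n = 3 each), a control level 1.30-fold the YapCM-/- level. The difference of -0.37 (SE 0.120, 95% interval -0.64 to -0.11) did not pass (limma adjusted p = 0.273), and without YapCM-/- replicate 1 it was -0.24.

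Dll1, a Delta ligand known from early nephron structures, read 8.06, 8.23 and 8.09 in control and 8.26, 8.02 and 8.11 in YapCM-/- kidneys. The highest and the lowest array were both YapCM-/-. The difference was 0.0044 (SE 0.089, 95% interval -0.19 to 0.20, adjusted p = 0.991). Lfng, the Fringe glycosyltransferase that alters which ligands a receptor answers to, was too dim to be tested, with its mean at the 37.5th percentile. It read 7.16, 7.16 and 7.23 in control and 7.17, 7.26 and 7.18 in YapCM-/- kidneys, and the groups overlapped.

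The readings of the targets differed in direction, and no target passed. Hes1, a transcriptional repressor induced by Notch in many tissues, read 9.55, 9.80 and 9.50 in control and 9.40, 9.32 and 9.16 in YapCM-/- kidneys. All YapCM-/- arrays were below all control arrays, with the nearest 0.099 apart. The means were 9.62 ± 0.16 and 9.29 ± 0.12 (SD, n = 3 each), a control level 1.25-fold the YapCM-/- level. The difference of -0.32 (SE 0.103, 95% interval -0.55 to -0.09) did not pass (limma adjusted p = 0.273), and it was -0.23 without control replicate 2, its highest array.

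Nrarp, an ankyrin-repeat protein that Notch induces and that in turn limits Notch activity, read 10.16, 9.98 and 10.23 in control and 9.80, 9.66 and 9.90 in YapCM-/- kidneys. All YapCM-/- arrays were below all control arrays, with the nearest 0.079 apart. The means were 10.12 ± 0.13 and 9.79 ± 0.12 (SD, n = 3 each), a control level 1.26-fold the YapCM-/- level. The difference of -0.33 (SE 0.095, 95% interval -0.55 to -0.12) had the smallest p of the members, at place 561 of the 22640 tested probes, and did not pass (limma adjusted p = 0.230).

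Heyl, a HEY-family repressor known from vascular mural cells, was the only target with a higher reading in every YapCM-/- array. It read 8.59, 8.48 and 8.80 in control and 8.91, 9.07 and 8.81 in YapCM-/- kidneys. The groups were only 0.010 apart, between control replicate 3 and YapCM-/- replicate 3. The YapCM-/- level was 1.24-fold the control level, and the difference of 0.31 (SE 0.104, 95% interval 0.08 to 0.54) did not pass (limma adjusted p = 0.305). Set against Hes1 on the same array, the Heyl signal stood at -0.96, -1.32 and -0.70 in control and at -0.49, -0.25 and -0.35 in YapCM-/- kidneys, on the log2 scale. The offset between the probes has no meaning of its own, but this within-array difference moved by 0.63 between the groups without overlap, while Hes1 set against Nrarp moved by 0.01. These contrasts were picked after the values were seen and carry no test. With Heyl higher and Hes1 lower in every YapCM-/- array, their lack of overlap was given in advance. The shifts only restate the differences of the single genes.

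Hes5, a further HES repressor, has a pair of probes that disagreed in sign. The brighter read 8.14, 8.23 and 8.04 in control and 7.72, 8.04 and 8.10 in YapCM-/- kidneys, a difference of -0.18 (SE 0.108, adjusted p = 0.569). YapCM-/- replicate 1 alone lay below the controls, and without it the difference was -0.07. The dimmer read 7.52, 7.84 and 7.50 against 7.67, 7.88 and 7.65, a difference of 0.11 (SE 0.110, adjusted p = 0.754). The groups overlapped at both probes, so these arrays give Hes5 no direction.

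**Figure D2:**
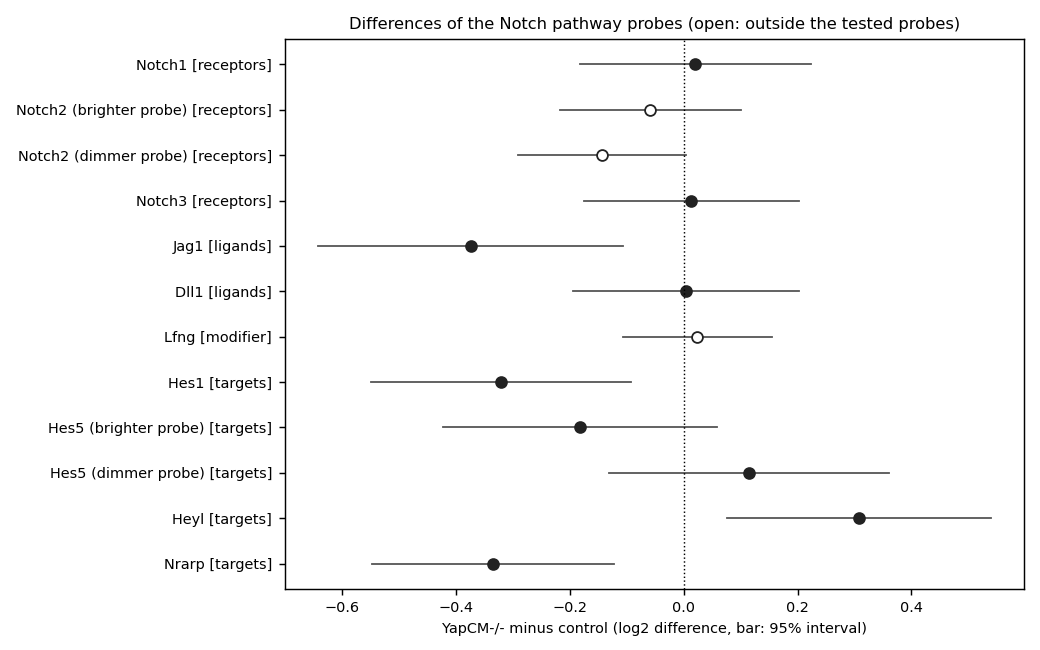
Log2 difference, YapCM-/- minus control, of each Notch pathway probe (points) with its 95% interval from limma (lines). Open points are the 3 probes outside the tested range, whose intervals come from the fit of all probes. The intervals of Jag1, Hes1, Heyl and Nrarp do not reach 0, while 0 of these 4 passed after adjustment over all tested probes.

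Single arrays moved the members unevenly. On control replicate 2, 6 of the 9 tested member probes were the highest of the controls (Notch3, Jag1, Dll1, Hes1 and both Hes5 probes), while Heyl and Nrarp were at their lowest there. The members' median deviation from the control mean was 0.09 on that array, beside -0.0046 for all tested probes. Without control replicate 2 the differences were -0.33 for Jag1, -0.23 for Hes1, -0.40 for Nrarp and 0.24 for Heyl. On YapCM-/- replicate 2, likewise, 6 of the 9 lay above their group mean, with a median deviation of 0.09 beside -0.0045 for all tested probes. Without that array the differences were -0.48 for Jag1, -0.34 for Hes1, -0.27 for Nrarp and 0.24 for Heyl.

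The rest of the pathway showed no call. Of 44 further genes in 7 role groups, 40 had a probe and 32 were tested. Of these 0 passed in limma. Only 0.177% of all tested probes were called, so 0 among 32 tells little about the pathway. With no adjustment, 1 was higher and 0 were lower at limma p under 0.05, against 5.53% and 5.92% of all tested probes. The groups did not overlap at 3 of the 32 in the higher direction (Neurl1a, Mfng and Maml2), against 8.11% of all tested probes, and at 1 in the lower (Hey2), against 8.41%. The median difference was 0.0064, with a range from -0.17 to 0.26. The gene with an unadjusted p under 0.05 was Neurl1a, a ubiquitin ligase whose fly relative, Neuralized, acts on Notch ligands. It read 8.97, 8.87 and 8.91 in control and 9.10, 9.17 and 9.18 in YapCM-/- kidneys, a difference of 0.23 (SE 0.075, adjusted p = 0.274).

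Among the other receptors and ligands, Notch4, a receptor of endothelium, had the smallest p, at 0.26 (SE 0.147, adjusted p = 0.550). It read 9.10, 8.66 and 9.11 in control and 9.41, 8.95 and 9.29 in YapCM-/- kidneys, so that the groups overlapped. Jag2 and Dll3 were too dim to be tested. Dll3 was lower in every YapCM-/- array, at -0.21 in the limma fit of all probes (adjusted p = 0.315). Hes7 and Hes2, also too dim, were higher in every YapCM-/- array. They stood at 0.14 and 0.05 in that fit (limma adjusted p = 0.523 and 0.859). These genes were singled out after their values were seen, and no direction is given for them. In the remaining groups the gene with the smallest p was Mfng (0.10, adjusted p = 0.679) for the enzymes that add sugars to the receptor, Psen2 (0.11, adjusted p = 0.755) for the proteases and Maml2 (0.13, adjusted p = 0.583) for the nuclear complex. It was Dtx1 (-0.16, adjusted p = 0.620) for inhibitors and turnover and Hey2 (-0.16, adjusted p = 0.492) for the other HES and HEY factors. Of the 7 tested proteases, among them the gamma-secretase subunits Ncstn and Psenen, the differences ran from -0.05 to 0.11. Rbpj, named after its values were seen, had 3 probes, all too dim to be tested.

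**Figure D3:**
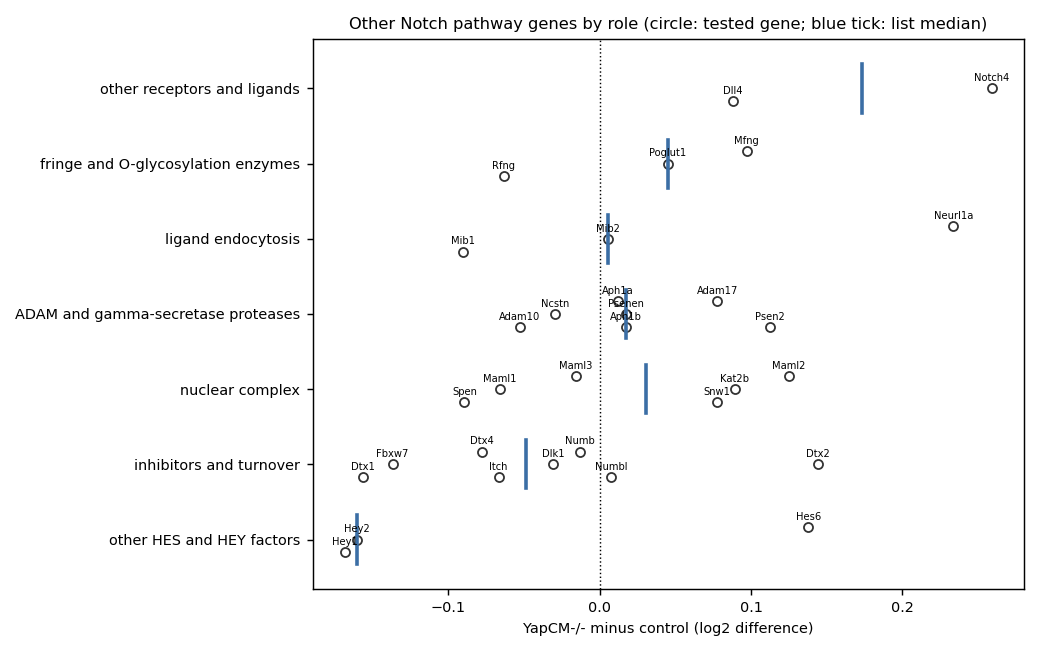
Log2 difference, YapCM-/- minus control (horizontal axis), of the 32 tested further Notch pathway genes by role, 1 probe per gene. Circles are genes and blue ticks are group medians. The points lie between -0.17 and 0.26 and 0 passed the adjusted threshold.

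Markers of the nephron parts whose formation involves Notch were set beside these genes. In RNA of a whole organ, fewer cells of a type and less RNA per cell cannot be told apart. Over all tested probes, 8.41% were lower and 8.11% higher in YapCM-/- kidneys without overlap, and 0.177% were called. The marker lists were chosen with earlier results known, so counts in them are a description. Of 5 tested proximal tubule markers all were lower without overlap and 2 fell, Pdzk1 by 1.02 (adjusted p = 0.0313) and Lrp2 by 0.91 (adjusted p = 0.0344). The summed linear signal, taken over all markers of a list that had a probe (8 here), ranged from 2153 to 2732 in control and from 1459 to 1656 in YapCM-/- kidneys. Of 4 tested podocyte markers 3 were lower without overlap and 0 passed, and the sum ranged from 4720 to 4971 against 3896 to 4424. The smallest p-values were those of Nes (-0.41, limma adjusted p = 0.179) and Podxl (-0.41, limma adjusted p = 0.230). The brightest probe in the sum was that of Tcf21, at 0.0054. Of 9 tested early nephron markers 4 were lower and 1 higher without overlap and 0 passed, and the sum ranged from 16950 to 19373 against 15954 to 17570. The smallest p-values were those of Osr2 (-0.66, limma adjusted p = 0.0870) and Lhx1 (-0.46, limma adjusted p = 0.0943). The brightest probe in this sum was that of Ccnd1, at 0.12. Tcf21 and Ccnd1 were named after their values were seen. The part of these nephron cells in the lower Jag1, Hes1 and Nrarp readings was not tested.

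Beside the Heyl and Notch4 readings stood the vessel markers. Of 8 tested endothelial markers 0 passed in limma, and with no adjustment 3 were higher and 1 lower at p under 0.05. At that level 5.53% of all tested probes were higher and 5.92% lower. Esam was at 0.28 (adjusted p = 0.283) and Tek, the angiopoietin receptor, at 0.20 (adjusted p = 0.381). The differences of 5 markers were above 0 and those of 3 below, with a median of 0.03. Flt1, a VEGF receptor named after its values were seen, was lower in every YapCM-/- array, at -0.17 (adjusted p = 0.436). The sum of the endothelial markers ranged from 6235 to 6799 in control and from 6936 to 7370 in YapCM-/- kidneys, and rests mostly on the brightest probes, those of Emcn (0.24, adjusted p = 0.426) and Esam. Of 6 tested mural cell markers 2 were lower and 0 higher at that level, Mcam at -0.36 (adjusted p = 0.197) and Pdgfrb at -0.32 (adjusted p = 0.273). All 6 differences were below 0, with a median of -0.12. The sum ranged from 3075 to 4156 against 3168 to 3309. Its brightest probe was that of Acta2, named after its values were seen, at -0.04 (limma adjusted p = 0.955). This probe read 11.15 on control replicate 3, its highest array. The part of either cell type in the Heyl reading was not tested.

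Of the other markers, 2 of 8 cap mesenchyme genes fell, Meox2 and Cited1, with a list median of -0.0015. In this list 4 differences were above 0 and 4 below. At an unadjusted limma p under 0.05, 3 were lower and 1 higher, Eya1 (0.34), named after its values were seen. Of 7 ureteric bud genes 1 rose, Ret, with a median of 0.16. Here 6 differences were above 0 and 1 below, with 2 higher and 0 lower at that p. Of all tested probes, 0.177% were called, and 5.92% were lower and 5.53% higher at that p. Stroma, neuron, erythroid and macrophage lists had 0 members past the threshold in limma. At an unadjusted p under 0.05, 1 stromal and 1 neuronal marker was lower and 1 erythroid marker higher. Their medians were 0.06, -0.0092, 0.02 and 0.0056.

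**Figure D4:**
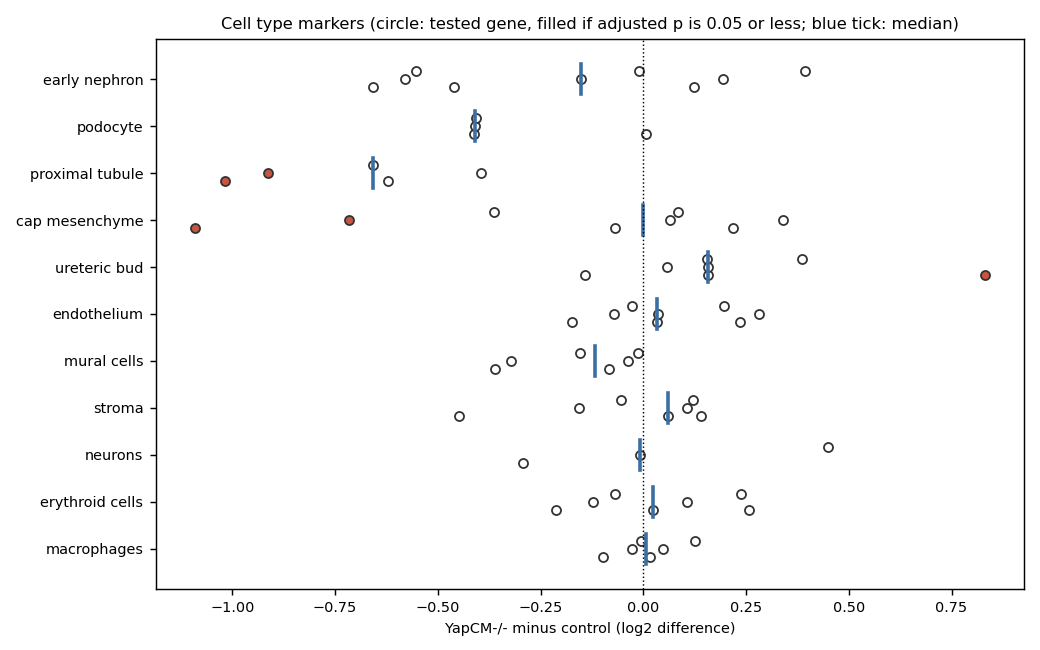
Log2 difference, YapCM-/- minus control (horizontal axis), of tested markers of 11 cell types or nephron parts. Circles are genes, filled where the adjusted p is 0.05 or less, and blue ticks are list medians. The 5 tested proximal tubule markers all lie below 0.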

How the data were processed

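Per the labels' protocols, total RNA of embryonic kidneys was turned into biotinylated cRNA with an Illumina kit. The deposited values are log2 signals of 45281 probes on 6 arrays; their sorted columns differ by at most 0.00608, as quantile normalization leaves them, and neither software nor background step is given in the sources used here. A second table of 12 per-sample columns was not used here, since its column names match no sample's labels.

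Probes were named through the platform annotation, in which 34885 have 1 symbol; 0 symbols changed against RefSeq. The 50% of probes with the highest mean were fitted with limma 3.58.1 (lmFit, eBayes) in R 4.3.3, two-sided, with Benjamini-Hochberg adjustment over all tested probes. Each member probe is given; a list gene is represented by its brightest probe. Within each role group the gene with the smallest p is named, and from marker lists up to 2. The members, the 7 role groups and the 11 marker lists were chosen with earlier results of these data known. Other settings covered the filter, eBayes options, array weights, replicate block, cyclic loess, background subtraction, Xist as a covariate, gene means, the threshold and each array left out. With 3 arrays per group, their number limits the precision.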

Additional observations from a re-analysis of the deposited data

How the results depend on the processing

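Under none of the alternatives did a member probe pass, and their lowest adjusted p was 0.104, for Jag1 with the replicate block. Jag1 (-0.48 to -0.24), Hes1 (-0.38 to -0.23), Nrarp (-0.40 to -0.27) and Heyl (0.24 to 0.41) kept their sign in all 16 settings. So did the brighter Hes5 probe (-0.33 to -0.07) in those that read it by itself. For Jag1, Hes1, Nrarp and Heyl, whose groups did not overlap, leaving out an array could not change the sign. The filter, eBayes and replicate block settings left each difference as it was, so the kept signs add little. Members near 0 changed sign with an array left out. Notch1 was at -0.00022 without control replicate 1 and ranged from -0.063 to 0.078, Notch3 ranged from -0.035 to 0.059, and Dll1 from -0.059 to 0.059. For Hes5 the mean of both probes was at -0.033, against -0.18 on the brighter and 0.11 on the dimmer probe.

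The count of 40 called probes was 26 among the 25% brightest probes, 8 with the background subtracted (5th percentile removed, 16 added), 67 with Xist as a covariate, 87 at an adjusted p of 0.10, 16 of gene means, and from 6 to 27 with an array left out. It was 138 with the replicate block. The deviations of same-numbered arrays correlated at 0.13, 0.14 and -0.02, and 2 of 6 arrays correlated best with their own number in the other group. So few arrays do not settle whether the numbers pair them. The causes were not tested. Probes below a mean of 7.29, those of Notch2, Lfng and Rbpj among them, were left out by the chosen share of 50% of probes, which is not a measured background; detection p-values were not used here.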
